A study of Mus musculus with 6 samples.

Results

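Regions of the mouse genome that carried an H3K27ac peak in proliferating C2C12 myoblasts, and none after 36 h or 72 h of differentiation, are described here. H3K27ac, acetylated lysine 27 of histone H3, was mapped by chromatin immunoprecipitation and sequencing (ChIP-seq) in C2C12, an established mouse myoblast line that withdraws from the cell cycle and fuses into myotubes when serum is reduced. The series asks about TAp63, a form of p63, which is a transcription factor related to p53, in muscle formation. The groups were C2C12 cells in proliferation, at 36 h of differentiation and at 72 h of differentiation, each with 1 H3K27ac library and 1 input library, 6 samples in all, and no sample is labelled with a genetic change. DNA of 4 ChIP assays went into each H3K27ac library, so the spread between cultures was not measured and no test between stages was made. Members were selected on the deposited peak calls themselves: overlapping peaks (1 bp or more) of the 3 lists were merged, and a region was a member if a proliferation peak was its only peak. This gave 7568 members of 112926 merged regions (6.7%), or 17.7% of the 42854 regions with a proliferation peak. The count was 2095 when peaks up to 1 kb apart were merged and 12811 with lists cut to equal length. Whether a member has a peak at a later stage is fixed by the choice and is no finding. Positions are on build mm9 and are counted from 1. They were not linked to genes or read as sequence, because the gene tables at hand are on another build.

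Lysine 27 acetylation is written mainly by the acetyltransferases p300 and CBP and removed by histone deacetylases. It marks promoters and enhancers in use, and a site that loses its activators usually loses the mark. In myoblasts, enhancers are held by MyoD together with AP-1, TEAD and RUNX factors. As the cells leave the cycle, growth-related enhancers are shut while muscle enhancers gain the mark under MyoD, myogenin and MEF2.

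Fragment numbers, used throughout as the measure of signal, are the reads stacked at a peak's summit, recovered from the deposited fold and p-value. Local backgrounds are given in scaled units. In these, 1 ChIP fragment counts as 0.673 in proliferation, 0.698 at 36 h and 0.657 at 72 h. The lists held 57101 peaks in proliferation, 89717 at 36 h and 97144 at 72 h. Relative to proliferation, ChIP depth was 1.20 at 36 h and 1.10 at 72 h, so the later libraries were the deeper ones. A site thus had somewhat more reads behind it later than in proliferation at equal enrichment. The median local background at peaks was 1.93 times the genome background in proliferation, 1.06 times at 36 h and 1.154 times at 72 h. The proliferation library stands apart in this, and the part of it in the results below was not tested. Fold and −log10 q are the authors' values for each peak and are used to describe and rank peaks within the proliferation list.

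Most members were short and weak. Each consisted of exactly 1 proliferation peak, since peaks of 1 list do not overlap. Together they made up 13.3% of the peaks of that list and 6.14% of the length under them, 1.92 Mb. The members had between 9 and 123 fragments at the summit, with a median of 16 and a 90th percentile of 22. Regions of proliferation that were also called later had higher medians, with 18 fragments for those shared with 36 h alone, 19 for those shared with 72 h alone and 30 for those of all 3 stages. The deposited fold enrichment over local background had a median of 4.51 in members (95% order-statistic interval 4.50 to 4.51), ranging from 1.82 to 13.4. In the same order of sharing, the medians of the kept regions were 4.87, 5.06 and 6.95. Median width was 212 bp in members, with a 90th percentile of 403 bp, compared with 390, 433 and 1119 bp in the kept regions, whose merged width takes in the later peaks. The shortest member was 147 bp wide, the smallest width in each of the 3 lists. A −log10 q of 10 or more was reached by 214 members (2.83%) and by 16352 of the 35286 regions that were also called later (46.3%). A kept region can hold several proliferation peaks and is given by its strongest, which favours higher values there. These values bear on the calls that chose the members and are given as a description.

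**Figure D1:**
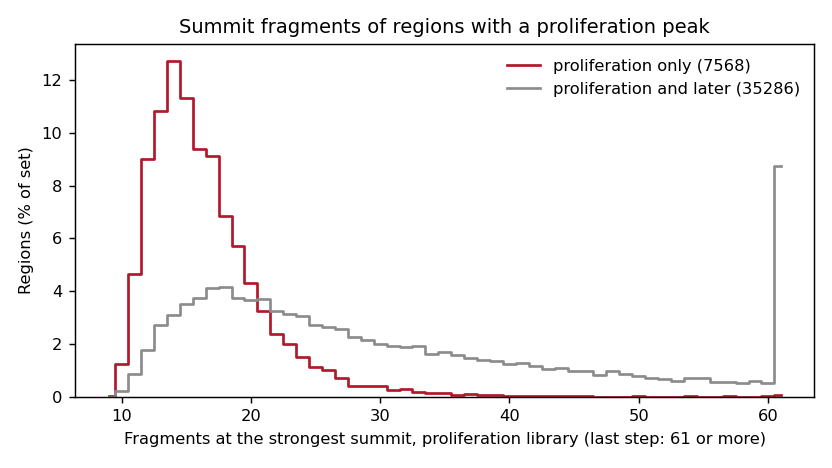
Fragments at the strongest proliferation summit (horizontal axis) for members (red) and for regions with a proliferation peak that were also called later (grey), as a percentage of each set. Members peak below 20 fragments, with a median of 16, and 126 of the 7568 exceed 30, while 14457 of the 35286 other regions do; the last step holds all regions with 61 or more.

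The share of proliferation regions that were members fell steeply with signal. It was 52.7% (95% Wilson interval 50.6 to 54.8%, counting error only) among regions with 9 to 12 fragments and 44.5% (43.2 to 45.7%) with 13 to 15. With 16 to 18 fragments it was 31.2%, and with 19 to 22 fragments 18.9%. Of the 7782 regions with 23 to 30 fragments, 571 were members (7.34%, interval 6.78 to 7.94%), and of the 5763 with 31 to 40, 105 (1.82%, 1.51 to 2.20%). Above 40 fragments members were rare, with 15 of 5734 regions up to 60 fragments (0.262%) and 6 of 3086 beyond (0.194%). A strong proliferation peak was thus seldom without a call at both later stages.

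**Figure D2:**
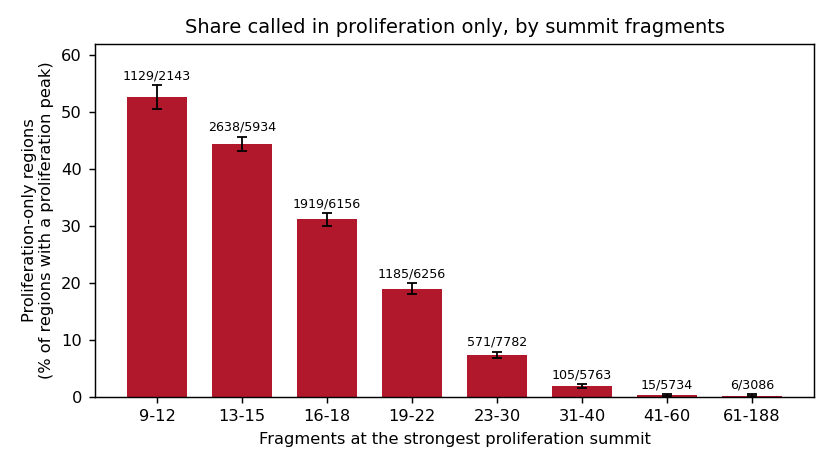
Share of regions with a proliferation peak that were members, by fragments at the strongest proliferation summit; bars are percentages, whiskers are 95% Wilson intervals (counting error only), and the numbers give members over regions. The share is 52.7% in the weakest class and 0.194% in the strongest.

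A missing later peak carries more weight where the signal should have sufficed for one. Carried over at equal enrichment, with depth and the typical signal ratio at shared regions taken into account, the median member would have had 18 fragments at 36 h and 18.5 at 72 h. A call needed 15 and 14 fragments there, at a local background of 3 scaled units, the 95% quantile of the later lists. This is a strict bar, as fewer fragments suffice at a lower background, and 72 h peaks with 11 and 12 fragments were called. Regions with at least a 99% Poisson chance of a call at both stages were termed detectable. They numbered 759 among the members (10.03%, interval 9.37 to 10.7%) and 22165 among the 35286 other regions with a proliferation peak (62.8%), or 53.5% of all regions with a proliferation peak. Of the 22924 detectable regions, 3.31% were members. For the other members this calculation gives no firm expectation of a later peak. Their label as acetylated in proliferation only therefore describes the calls, and later acetylation too weak for a call would not show in the lists. The detectable members had 21 to 123 fragments, with a median of 25, a median fold of 6.21 and a median width of 376 bp. Their expected medians were 29.0 fragments at 36 h and 30.1 at 72 h. The local background in proliferation was above 3 scaled units at 76 of them, so that the assumed background was too low there if the later inputs were alike. Without these, 683 remained. The number was 252 when peaks up to 1 kb apart were merged, 277 with a −log10 q of at least 5 in every list, 318 with lists of equal length and 1658 with a 95% chance of a call in place of 99%. Summit fragments of a called peak are a maximum that passed a threshold, which favours high values, so the expected numbers are upper estimates.

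Some proliferation regions without a 36 h peak had one at 72 h, and more so with more signal in proliferation. Of the 12031 regions without a 36 h peak, 7568 were members and 4463 (37.1%) had a peak at 72 h. A 72 h peak was far more common with a 36 h peak: 28908 such regions had one and 1915 did not. With 9 to 15 fragments the share with a 72 h peak was 23.6% (interval 22.5 to 24.8%), with 16 to 22 fragments 39.3%, with 23 to 30 fragments 61% and with 31 or more 75.8% (72.0 to 79.3%). In the other direction, 1915 of 9483 regions without a 72 h peak (20.2%) had one at 36 h, from 12.9% with 9 to 15 fragments to 54.0% with 31 or more. Of the regions with a 72 h peak, 28908 had one at 36 h and 4463 did not. The 72 h list was the longer one, and its calling bar at a background of 3 scaled units was 1 fragment lower.

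Many members lay close to a later peak. The gap from a member to the nearest later peak had a median of 555 bp. A later peak lay within 500 bp of 3594 members (47.5%), within 1 kb of 4520 (59.7%), within 5 kb of 5689 (75.2%) and within 100 kb of 7410 (97.9%). The share within 5 kb was 33.8% when peaks up to 1 kb apart were merged, as members within 1 kb of a later peak then joined it. Later peaks within 1 kb on both sides flanked 670 members (8.85%). Peaks of 72 h lay closer than those of 36 h, with median gaps of 853 and 2010 bp to the nearest 72 h and 36 h peak. Within 1 kb, 1413 members (18.7%) had a 72 h peak and no 36 h peak, 514 (6.79%) had a 36 h peak and no 72 h peak, and 2593 (34.3%) had both. Regions called at 36 h only lay at a median of 685 bp from the nearest peak of another stage and regions called at 72 h only at 1228 bp. Within 1 kb of such a peak were 59.7% of members (58.6 to 60.8%), 55.7% of 36 h only regions (55.0 to 56.4%) and 47.5% of 72 h only regions (46.9 to 48.1%). For members the other lists are the 2 longest, which shortens these gaps.

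**Figure D3:**
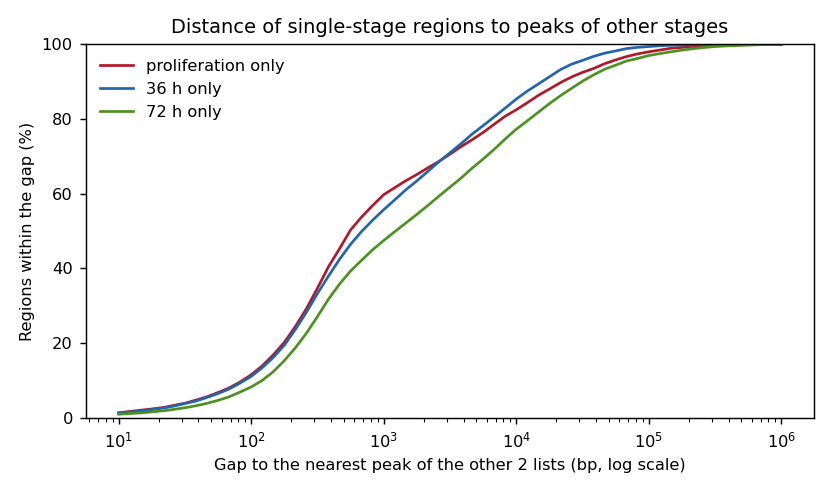
Percentage of single-stage regions whose nearest peak of the other 2 lists lies within a given gap (bp, log axis), for members (red), regions called at 36 h only (blue) and regions called at 72 h only (green). At 1 kb the curves stand at 59.7%, 55.7% and 47.5%.

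The neighbours of members were mostly other sites of proliferation. Within 1 kb of 4604 members there was a merged region of another class, and the nearest was a region of all 3 stages for 2184 (47.4%). It was a region of proliferation and 72 h for 1073 (23.3%) and of proliferation and 36 h for 371 (8.06%). Among all regions that are not members these classes make up 27.4%, 4.24% and 1.82%. Regions called at 72 h only were nearest for 500 members (10.9%) and regions called at 36 h only for 332 (7.21%), and these make up 25.6% and 17.0% of the other regions. Regions of 36 h and 72 h without proliferation, the class gained in differentiation, were nearest for 147 members (3.19%), though they make up 23.9% of the other regions. Where members had a neighbour this close, it was thus mostly a region already called in myoblasts.

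Distance from later peaks and strength were nearly unrelated among members. The median was 15 or 16 fragments in each class of gap, from 0 to 200 bp to over 20 kb. The median fold was 4.49 within 200 bp (interval 4.44 to 4.50) and 4.77 beyond 20 kb (4.59 to 4.82). The median local background was 1.28 scaled units beyond 20 kb, compared with 1.5 within 200 bp. Detectable members made up 9.05% of the 1723 members within 200 bp and 11.9% of the 827 beyond 20 kb. At equal signal, regions near other proliferation regions were members more often than solitary ones. With 19 to 22 fragments, the share was 22.9% (21.6 to 24.2%) where another proliferation region lay within 500 bp and 9.36% (7.79 to 11.2%) where none lay within 10 kb. With 31 or more fragments it was 1.28% (1.06 to 1.54%) and 0.328% (0.183 to 0.586%). A region also called later can hold several proliferation peaks and is placed by its strongest. Weak peaks merged into such regions are thus not counted on their own, while each member is a single peak. The part of this merging in the shares by spacing was not tested.

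Along the edge of the rule, 12 members touched a later peak without sharing a base, and 449 had one within 50 bp. The member on chromosome 10 from 43718542 to 43719056 touched a 36 h peak, had 36 fragments and a fold of 6.31. On chromosome 11, that from 48863061 to 48863365 touched a 36 h peak (13 fragments, fold 3.49) and that from 95023275 to 95023424 a 72 h peak (22 fragments, fold 3.95). Just outside, 570 proliferation peaks overlapped a later peak by at most 50 bp. Among them, the peaks on chromosome 1 from 193400382 to 193400678 (19 fragments, fold 3.63), chromosome 11 from 28808819 to 28808988 (16 fragments, fold 4.04) and chromosome 14 from 8681195 to 8681439 (18 fragments, fold 3.28) overlapped one by 1 bp. Members and non-members at this edge differ by a few bases of called width.

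At regions of all 3 stages, the ratio of later to proliferation signal was lower the more members lay around them. The signal above background at the strongest summit, scaled for depth, was set relative to proliferation at the 28908 shared regions, which are not members. The strongest summit was taken separately for each stage, so it can lie at different sites within a region. Where no member lay within 10 kb (22755 regions), the median ratio was 1.11 at 36 h (95% order-statistic interval 1.10 to 1.12) and 1.25 at 72 h (1.24 to 1.26). With 1 member within 10 kb (3893 regions) it was 0.795 at 36 h and 0.959 at 72 h, and with 2 members (1320 regions) 0.686 and 0.879. With 3 or more members (940 regions) it was 0.574 (0.551 to 0.601) at 36 h and 0.738 (0.711 to 0.766) at 72 h. Of these 940 regions, 86.0% had a ratio below 1 at 36 h and 74.9% at 72 h, while the shares were 39.3% and 28.9% where no member was near.

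Signal in proliferation differed between these classes of shared regions, with a median of 29 fragments where no member was near and 36.5 with 3 or more. The order was the same when only regions with 31 to 60 fragments in proliferation were taken. Their median ratios at 36 h were 1.07, 0.683, 0.580 and 0.517 for no, 1, 2 and 3 or more members, and at 72 h 1.19, 0.867, 0.808 and 0.663. In fragments, not scaled for depth, the 473 such regions with 3 or more members had medians of 42 in proliferation, 26 at 36 h and 31 at 72 h. The 8197 with no member near had medians of 41, 51 and 53. The ratio was higher at 72 h than at 36 h in every class, also where no member was near. The comparison was chosen after seeing the data and rests on 1 library per stage. Members near these regions were chosen for a proliferation call and no later call, in the same 3 libraries that give the ratios. The number of members and the ratio are therefore not independent, also within the 31 to 60 fragment class.

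**Figure D4:**
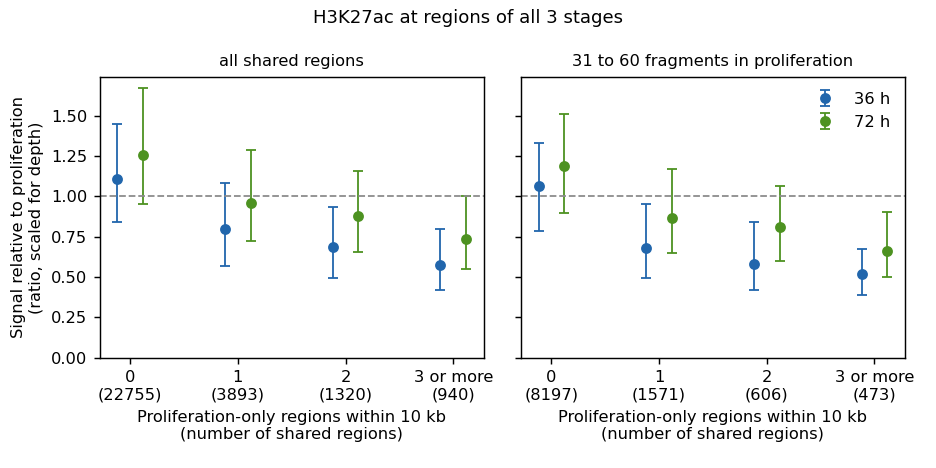
H3K27ac signal at 36 h (blue) and 72 h (green) relative to proliferation, scaled for depth, at regions of all 3 stages, by the number of members within 10 kb; points are medians and bars run from the lower to the upper quartile over regions, which are not replicates. For all shared regions (left) the 36 h median is 1.11 with no member and 0.574 with 3 or more; for those with 31 to 60 fragments in proliferation (right) it is 1.07 and 0.517.

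Members also came in groups, as did regions with a proliferation peak in general. The median gap to the next member was 5071 bp, and 2627 members (34.7%) had another within 1 kb. Stitched across gaps of up to 10 kb, 2321 members (30.7%) formed 592 groups of 3 or more, while 3293 members stood alone. The number of groups depended on the calls, with 18 when peaks up to 1 kb apart were merged, 245 with a −log10 q of at least 5 in every list and 1262 with lists of equal length. In 206 of the 592 groups (34.8%), which hold 716 members, no later peak lay between the first and the last member. When all 42854 regions with a proliferation peak were stitched in this way, 8640 stood alone, compared with 3293 of the 7568 members. Grouping was thus not particular to members. Of the 18507 clusters, 1346 (7.27%) consisted of members alone. The share was 11.3% for single regions, 5.94% for clusters of 2, 2.21% for those of 3 or 4 and 0.765% (12 clusters) for those of 5 to 9. None of the 338 clusters of 10 or more regions consisted of members alone, but 291 of these (86.1%) held at least 1 member.

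Groups with no later peak had at most 7 members, a number reached at 3 loci. That with the longest stretch under peaks lay on chromosome 14 from 48372048 to 48378106. Its members had 16, 16, 16, 16, 23, 17 and 37 fragments from left to right, with folds of 2.94 to 10.7, and 2.94 kb under peaks. The nearest peak outside the group was 74.3 kb away at 36 h, 87.0 kb away at 72 h and 102 kb away in proliferation. This is a solitary row of 7 separate peaks over about 6.06 kb in proliferating cells, dominated by its last peak of 1509 bp. Of the 7 members, 2 were detectable.

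On chromosome 15 from 8580792 to 8594549, a group of 7 members had 12 to 23 fragments (median 19), none of them detectable, and lay 28.4 kb from the next proliferation peak. A group on chromosome X from 45393040 to 45407940 also had 7 members, with 12 to 22 fragments (median 15) and 1 detectable member. Neither locus had a strong peak, and both rest on weak calls in a row. The 6 members on chromosome 11 from 100054686 to 100069509 had 15 to 27 fragments, and 3 of them were detectable. Another 6 on chromosome 3 from 107513169 to 107520475 had 15 to 32 fragments, and 36 h and 72 h peaks lay 0.612 and 0.584 kb beyond the group.

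The group with most members lay on chromosome 17 from 45349845 to 45385007, a span of 35.2 kb with 13 members. Their summits had 11 to 60 fragments with a median of 21, and 5 were detectable. Its central member, 2068 bp from 45365549 to 45367616, was the widest of all members, with 60 fragments, a fold of 6.89 and a local background of 5.00 scaled units. In proliferation 17 peaks covered 10.2 kb of the span, at 36 h 2 peaks covered 0.522 kb, and at 72 h 6 peaks covered 1.61 kb. The highest summit in it had 60 fragments in proliferation, 24 at 36 h and 27 at 72 h. Later peaks in the span were thus few and short, but not absent. The span was chosen for its number of members, which favours proliferation in these values.

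A group of 13 members on chromosome 11 from 78173785 to 78212306 had 13 to 35 fragments and 3 detectable members, in a span of which peaks covered 18.4 kb in proliferation, 6.43 kb at the 36 h stage and 7.2 kb at the 72 h stage. It includes the second widest member, 1875 bp from 78210199 to 78212073, with 35 fragments and 42.6 expected at 36 h, 0.967 kb from the nearest 36 h peak. On chromosome 2 from 125739770 to 125775126, 12 members stood in a span with a covered length of 6.46 kb in proliferating cells, 1.66 kb after 36 h and 3.24 kb after 72 h. Groups of 11 members lay on chromosome 8 from 37958267 to 37979468 (8.22, 3.06 and 3.41 kb at the successive stages) and on chromosome 6 from 135243362 to 135257018 (6.37, 2.35 and 2.72 kb). In each of these 4 spans the 72 h length exceeded the 36 h length and stayed below that of proliferation. The highest summit on chromosome 6 was nevertheless that of 72 h, with 41 fragments in proliferation, 25 at 36 h and 46 at 72 h. The spans were chosen for their members, which favours proliferation in these lengths.

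Stitched across gaps of up to 50 kb, a setting chosen after seeing the data, the group with the highest sum of fragments lay on chromosome 3 from 121250745 to 121353364. It had 21 members over 103 kb, with 13 to 45 fragments (median 22), and 9 of them were detectable. In proliferation 28 peaks covered 15.8 kb of it, at 36 h 4 peaks covered 1.93 kb, and at 72 h 6 peaks covered 2.52 kb. Its highest summit had 93 fragments in proliferation, 32 at 36 h and 38 at 72 h. The highest summit of the locus was thus lower at both later stages, in libraries of greater depth. The locus was chosen for the proliferation fragments of its members, which favours proliferation in these values.

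**Figure D5:**
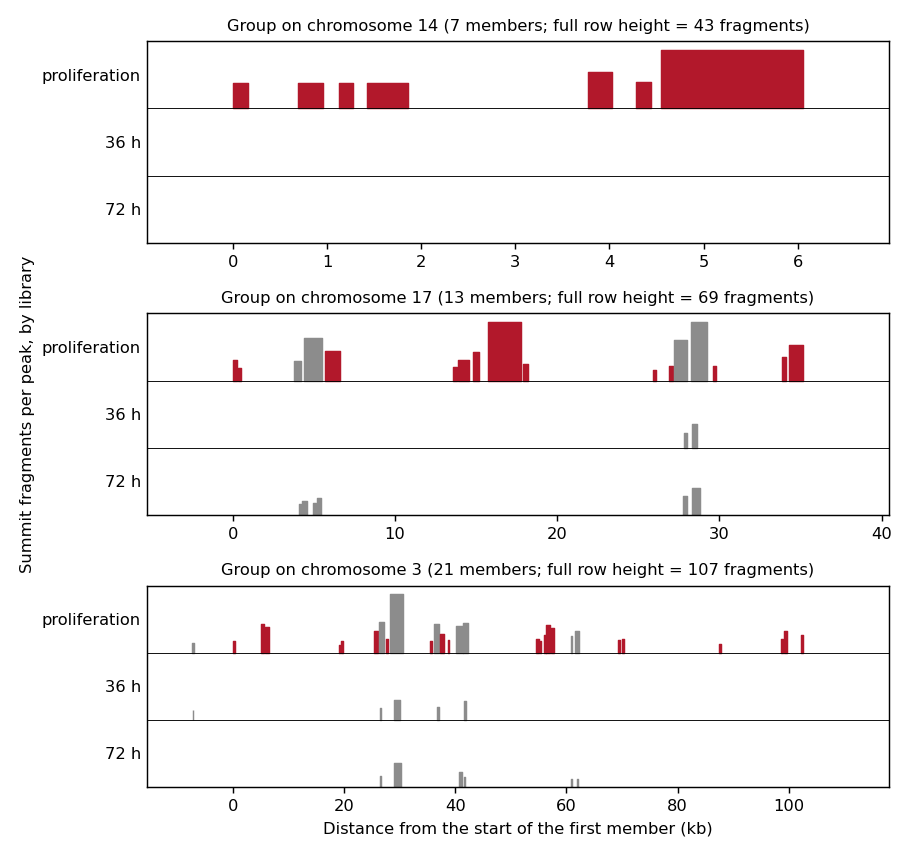
Peaks of 3 loci in the proliferation, 36 h and 72 h libraries, drawn to scale along the distance from the first member (kb), with bar heights as fragments at the summit, not scaled for depth, and the full row height given in each title; members are red and all other peaks grey. The chromosome 14 locus has 7 members and no later peak, the chromosome 17 locus 13 members and 2 and 6 peaks at 36 h and 72 h, and the chromosome 3 locus 21 members and 4 and 6.

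The 10 members with the highest −log10 q stood above 83.9 to 90.4% of the peaks of their own list. The highest, on chromosome 11 from 79227082 to 79228541, had 45 fragments, a fold of 12.3 and a −log10 q of 25.4. At equal enrichment 54.7 fragments were expected at 36 h and 56.9 at 72 h. No peak of 36 h lay closer than 37.4 kb, and none of 72 h closer than 37.6 kb. A second member directly to its left, from 79226269 to 79226883, had 46 fragments and a fold of 7.99. The pair forms an isolated site of which no part was called later.

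Of the other 9 members with the highest −log10 q, 3 had a later peak within 5 kb. They lay on chromosome 3 from 96292264 to 96292678 (39 fragments, fold 13.4, 1.40 kb from a 72 h peak), on chromosome 12 from 25782558 to 25783203 (45 fragments, fold 11.8, 200 bp from a 36 h peak) and on chromosome 4 from 4562776 to 4563132 (35 fragments, fold 10.6, 120 bp from a 72 h peak and 89.2 kb from one of 36 h). The isolated ones include the chromosome 14 and chromosome 17 members named above. They also include chromosome 2 from 108657069 to 108657901 (38 fragments), chromosome 6 from 72138497 to 72139905 (43 fragments), chromosome 17 from 37068257 to 37068780 (33 fragments) and chromosome 3 from 121255780 to 121256314 (45 fragments). The last of these belongs to the 103 kb locus. All 10 were detectable, with 40.8 to 66.9 fragments expected at 36 h. Among the 5 widest, that on chromosome 12 from 86221617 to 86223269 (1653 bp, 26 fragments) lay 0.494 kb from a 36 h peak.

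In all, 1879 members (24.8%) were isolated, with no later peak within 5 kb, and 158 had none within 100 kb. Isolated members had a median of 15 fragments, a fold of 4.76 and a width of 219 bp, and 226 of them (12.03%) were detectable. Another member lay within 10 kb of 1066 (56.7%), close to the share among all members (4275, 56.5%). Ranked by fragments, 8 of the first 10 isolated members had a local background of 5 scaled units or more, and 4 of these lay on unplaced sequence. The highest, on unplaced sequence from 4253153 to 4253541, had 123 fragments, a background of 38 scaled units and a fold of 2.15. On chromosome 3, the member from 56379345 to 56379641 had 94 fragments, a background of 27 scaled units and a fold of 2.29. High fragment numbers went with high background at these 8 members, and their folds ran from 2.15 to 6.89, the highest being that of the widest chromosome 17 member. A background of at least 5 scaled units was found at 53 of the 7568 members. It was found at 996 of the 35286 regions with a proliferation peak that were also called later, a larger share.

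Members were spread over all assembled chromosomes. They made up 15.1% (chromosome 19, 13.2 to 17.1%) to 20.6% (chromosome 13, 18.9 to 22.4%) of the regions with a proliferation peak. The intervals of these lowest and highest shares did not overlap, but the 2 were picked as the extremes of 20 chromosomes. The intervals also treat neighbouring regions as independent, so this is no test of a difference between chromosomes. The share was also above 20% on chromosomes 3 (20.5%, 19 to 22.1%) and 6 (20.01%, 18.4 to 21.8%). The X chromosome had 17.4% (15.1 to 19.9%), near the 17.7% of all sequences. On random and unplaced sequences, 27 of 128 regions were members (21.1%, 14.9 to 29.0%). Local shares varied more. Among the 907 windows of 1 Mb with at least 20 such regions, the median share was 15.2%, 34 windows had no member and 16 had 50% or more. The highest, chosen after seeing the values, was 18 of 24 regions (75%, interval 55.1 to 88.0%) on chromosome 17 from 54000001 to 55000000. Next came 23 of 35 (65.7%, 49.2 to 79.2%) on chromosome 13 from 109000001 to 110000000.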

How the data were processed

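The deposited files are 1 MACS2-style narrowPeak list for each H3K27ac library; the submitters' processing notes name BWA, MACS2, deepTools and build mm9, with versions and settings not given in the sources used here. Per the narrowPeak column order, the authors' values for each peak are a score (not analysed), a fold (ratio of the ChIP signal to its local background), a −log10 p, a −log10 q and a summit offset. Read totals were not used here.

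Fragments and local background were recovered from the deposited fold and −log10 p by assuming whole fragments and a scale factor for each library. The recovered numbers gave back the deposited −log10 p for 100% of peaks (relative tolerance 0.0003). Recovery was tested on simulated data. The procedure assumes MACS2's formulas, with the input as control and equal genome size and fragment length in each run. Peak calls were merged, compared and counted with Python 3.11.15, pandas 2.3.3 and scipy 1.17.1. Intervals are 95% Wilson or order-statistic intervals and cover counting error only. With 1 library per stage, no p-value was computed.

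Regions were named by rank within the members (−log10 q, fragments of isolated members, width, group size, closeness to the rule's edge). Members, lists and rules were chosen with earlier results of these data known. Planned gene links, distances to gene starts, motifs and sequences were not made, because the reference tables are on another build. The closing section gives the effect of other merging gaps, thresholds and list lengths.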

Additional observations from a re-analysis of the deposited data

Results flagged for a closer look

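The local background recovered from the peak statistics was above the genome background of the proliferation library at 85.5% of members (interval 84.7 to 86.3%). At regions with a proliferation peak that were also called later it was above it at 91.5%. The medians were 1.46 scaled units at members and 2 at the other regions. Its part in the missing later calls was not tested.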

How the results depend on the processing

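No paired analysis was possible because each stage had 1 library, and for the same reason none could be left out. The number and kind of members depended on the setting. Merging peaks across gaps of up to 1 kb left 2095 members with a median fold of 4.77, a median width of 242 bp and a later peak within 5 kb for 33.8%, with 252 detectable members and 18 groups; the median signal ratios at shared regions with 3 or more members nearby were then 0.465 at 36 h and 0.687 at 72 h. With a −log10 q of at least 5 in every list there were 4508 members (fold 5.76, width 312 bp, 62.8% within 5 kb, 277 detectable, 245 groups). With lists of equal length there were 12811 (fold 4.63, 229 bp, 64.8%, 318 detectable, 1262 groups), and the ratios were 0.697 and 0.880. A −log10 q of at least 5 in the proliferation list alone left 2357 members, and in the later lists alone gave 12175. A chance of a call of 95% gave 1658 detectable members. There were 14 other values. Among them, the count was 10590 when members were proliferation peaks under 50% covered by either later list, detectable members numbered 546 without scaling for enrichment, and there were 473 groups at a stitching gap of 5 kb. Values without random and unplaced sequences, and the 683 detectable members without high local background, were chosen after seeing the data. The ratios stayed below 1 in each setting run. Not run were the alternatives on gene starts and sequence windows. No member with fewer than 21 summit fragments was detectable at both later stages, and not every member with more was. The part of depth in the missing calls was not tested.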
